A study of Mus musculus with 13 samples.

Results

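Sla, Rprm, Lsp1, Pitpnc1, Syt6 and Crhbp were examined as markers of layer 6a corticothalamic neurons in single cells from the mouse claustrum, a thin sheet of gray matter beneath the insular cortex. They were taken by name, with earlier results of these data known, and are 6 of the 23427 genes listed in either count table. All 6 were found, 5 of them in both tables, while Crhbp is listed only in the table of the projection mice. Cells entered the comparisons when they had at least 1 count of Snap25, a synaptic gene of neurons, and of Slc17a7, which encodes a vesicular glutamate transporter of excitatory neurons. This kept 1011 of the 1112 harvested cells.

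All cells were picked by hand from microdissected claustrum of 4 mature male C57BL/6 mice. In 1 animal, here the blindly sampled mouse, rAAV2-retro-CAG-GFP injected into the anterior cingulate cortex outlined the tissue, and cells were chosen without regard to GFP. In the other 3, here projection mice 1 to 3, green and red retrobeads, tracer microspheres carried back along axons, had been placed in the lateral entorhinal cortex (LEC) and the retrosplenial cortex (RSC). They guided the dissection and the choice of labeled cells. Kept cells numbered 238 in the blindly sampled mouse and 224, 220 and 329 in projection mice 1, 2 and 3. Of those of the projection mice, 247 carried the RSC label, 286 the LEC label and 240 no label. Median totals per kept cell were 26023 counts in the blindly sampled mouse and 138535 to 154261.5 counts in the projection mice. The blindly sampled mouse is 1 animal on 3 plates, and the projection mice fill the other 10. The paper put 3 plates on 1 flow cell and 10 on another with a different read length, without naming them. Differences of the blindly sampled mouse from the projection mice are therefore given as descriptions, and animal, depth and possibly run cannot be told apart. The 13 plates used the same barcodes again: 231 cell barcodes stand in both tables, on different plates. The replicate is the mouse throughout.

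Corticothalamic neurons are the excitatory cells of layer 6 that send axons from the cortex to the thalamus. Layer 6a lies above the thinner layer 6b, whose neurons express another set of genes, and near the claustrum both lie close to claustral neurons. From these data and in situ hybridization, the paper describes a claustral core marked by Synpr, which encodes a synaptic vesicle protein. Around it the paper places a shell that expresses other genes, among them Slc30a3, a zinc transporter of synaptic vesicles. A gene set that marks layer 6a can therefore tell cortical cells in a claustral dissection from claustral cells.

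The 6 genes have unrelated products. Sla encodes an adaptor protein that dampens receptor signaling in lymphocytes, and in GRCm38 it lies at chr15:66780819-66831829 on the minus strand. Rprm encodes reprimo, a small protein tied to arrest of the cell cycle, in 1 exon at chr2:54084093-54085552 on the minus strand. Lsp1 encodes an actin-binding protein of leukocytes, at chr7:142460809-142494867 on the plus strand. Pitpnc1 encodes a phosphatidylinositol transfer protein, at chr11:107207892-107470699 on the minus strand. Syt6 encodes a synaptotagmin, a membrane-trafficking protein, at chr3:103575231-103645569 on the plus strand. Crhbp encodes a secreted protein that binds corticotropin-releasing hormone, at chr13:95431371-95444924 on the minus strand. These positions come from the GENCODE annotation of GRCm38, while the submitters' processing notes name NCBIM37, and they were used only to place the genes. Sla lies within the locus of Tg on the opposite strand without shared exons, and the exons of Syt6 overlap a copy of Atg4a that had 1 count in all kept cells. Whether the counting used strand is not given in the sources used here.

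Of the 4 genes found in the promoter table used here, 3 had transcripts found together in single cells, as described further on. Crhbp was too rare to tell. Promoter sequences of all 4 from RefSeq (GRCm38.p6) are shown. Each runs 5′ to 3′ on the strand of the gene, from 250 bases before to 50 bases after the transcription start, at chr2:54085503-54085802 (minus) for Rprm, chr3:103574995-103575294 (plus) for the first of 3 starts of Syt6, chr11:107470671-107470970 (minus) for Pitpnc1 and chr13:95444782-95445081 (minus) for Crhbp. Capitals mark the matches to 3 sets of letters searched on both strands.
Rprm: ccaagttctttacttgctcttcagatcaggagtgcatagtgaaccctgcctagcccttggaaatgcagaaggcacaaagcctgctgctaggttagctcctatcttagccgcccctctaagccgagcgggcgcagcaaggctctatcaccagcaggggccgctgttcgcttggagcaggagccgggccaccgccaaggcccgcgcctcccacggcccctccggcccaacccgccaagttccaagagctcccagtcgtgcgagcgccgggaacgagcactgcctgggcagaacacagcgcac
Syt6: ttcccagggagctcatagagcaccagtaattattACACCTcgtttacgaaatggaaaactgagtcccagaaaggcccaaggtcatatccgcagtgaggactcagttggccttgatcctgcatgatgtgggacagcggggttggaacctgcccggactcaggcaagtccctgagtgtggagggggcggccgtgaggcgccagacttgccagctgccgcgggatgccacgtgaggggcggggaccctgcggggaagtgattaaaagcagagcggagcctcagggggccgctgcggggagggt
Pitpnc1: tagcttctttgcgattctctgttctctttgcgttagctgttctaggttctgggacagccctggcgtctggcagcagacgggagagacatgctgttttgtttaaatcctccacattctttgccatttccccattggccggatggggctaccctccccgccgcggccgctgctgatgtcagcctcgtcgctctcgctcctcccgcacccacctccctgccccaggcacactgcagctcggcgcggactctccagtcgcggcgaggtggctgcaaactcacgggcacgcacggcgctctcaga
Crhbp: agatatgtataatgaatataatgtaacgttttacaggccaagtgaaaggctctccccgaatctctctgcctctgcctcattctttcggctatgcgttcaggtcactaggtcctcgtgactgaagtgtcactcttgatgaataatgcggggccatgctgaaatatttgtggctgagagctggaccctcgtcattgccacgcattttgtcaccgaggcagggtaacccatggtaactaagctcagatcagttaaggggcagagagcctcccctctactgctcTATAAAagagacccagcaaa
The letters were AGGTGT, the core of T-box sites, AACAAT, the core of SOX sites, and TATAAA, the TATA box. The match in Syt6 is the T-box core read on the other strand and the match in Crhbp is a TATA box. Rprm, Pitpnc1 and the other starts of Syt6 held none of the 3. Of all 32851 promoters of this length, 13.7% held AGGTGT, 10.7% AACAAT and 13.6% TATAAA. The pair CG stood 19 times in the window of Rprm, 16 times in that of Syt6 and 23 times in that of Pitpnc1, against 9 in that of Crhbp and a median of 7 over all promoters (quartiles, 3 and 20). These are counts of letters in 1 window per start and were not tied to a measurement here.

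To ask whether the genes mark cells other than claustral ones, cells were split by limits on Synpr and Slc30a3. CPM, the count of a gene scaled to a common total of the cell without spike-ins, was at least 200 for Synpr in 418 cells (Synpr class) and at least 20 for Slc30a3 in 359 cells (Slc30a3 class). The 214 cells below both limits were 46, 68, 44 and 56 in the blindly sampled mouse and projection mice 1, 2 and 3. A further 20 cells were over both limits and were left out of the tests. Few cells lay near a limit: 2 cells below both had 100 to 200 CPM of Synpr and 11 had 10 to 20 CPM of Slc30a3, and 187 had 0 counts of Slc30a3.

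Detection was compared after every cell with at least 20000 counts had been thinned to 20000 counts, since a deeper cell shows more genes. This left 190 cells below both limits and 718 of the Synpr and Slc30a3 classes, and it left out 24 and 59. Of the 190 cells, 105 had a count of at least 1 of the 6 genes (55.3%, exact 95% interval 47.9 to 62.5). In 78 of them 2 or more were found (41.1%, 34.0 to 48.4). By mouse this share was 40.6% in the blindly sampled mouse and 43.1%, 43.6% and 37.0% in projection mice 1, 2 and 3 (41.1% ± 2.99, SD, n = 4 mice). Thus 85 cells had none of the genes, 27 had 1, 38 had 2, 28 had 3, 11 had 4 and 1 had 5. Outside these cells the genes were rare. Of the 718 cells of the Synpr and Slc30a3 classes, 35 had at least 1 (4.88%, 3.42 to 6.72) and 7 had 2 or more (0.975%, 0.393 to 2.0). Intervals cover counting error only, because several counts may come from 1 molecule and cells of a mouse are not independent. Without thinning, 47.2% of the 214 cells below both limits had 2 or more of the genes and 13.8% of 777 other cells had at least 1.

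**Figure D1:**
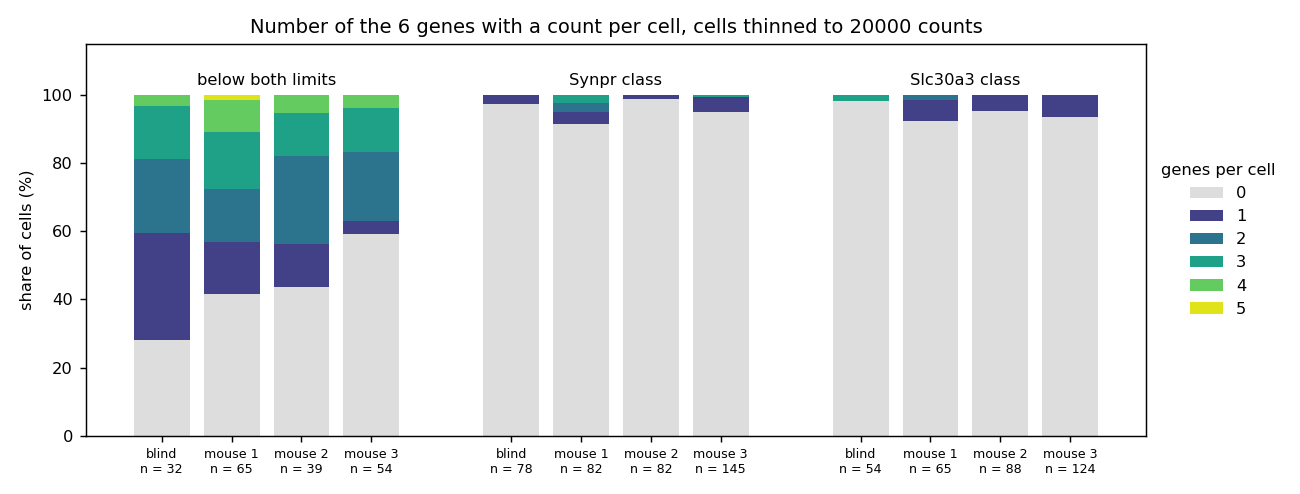
Share of cells (y axis, percent) with 0 to 5 of the 6 genes, in cells thinned to 20000 counts, by class and mouse, with the number of cells under each bar. Below both limits 13 of 32, 28 of 65, 17 of 39 and 20 of 54 cells had 2 or more of the genes, while in the other classes most of every bar is gray, which stands for none of the genes.

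The genes differed in how evenly they were found across the mice. Sla was detected in 34.4% of cells below both limits in the blindly sampled mouse and in 16.9%, 25.6% and 18.5% in projection mice 1, 2 and 3. Pitpnc1 was likewise most frequent in the blindly sampled mouse, at 50% against 24.6%, 28.2% and 20.4%. Lsp1 followed the same order at its top, with 43.8% against 32.3%, 20.5% and 13%. Rprm ran the other way: it was found in 2 of 32 cells of the blindly sampled mouse (6.25%, 0.766 to 20.8) and in 50.8%, 28.2% and 35.2% of cells of projection mice 1, 2 and 3. Syt6 was found in 16.9%, 17.9% and 11.1% of cells of the projection mice and in 0 of 32 of the blindly sampled mouse, which allows a share of up to 9.38% (3 cells of 32). Crhbp was found in 1 of the 158 cells of the projection mice, whose table alone lists it. In the Synpr and Slc30a3 classes, detection over all mice was 0.696% for Sla, 1.25% for Rprm, 0.418% for Lsp1, 2.65% for Pitpnc1 and 0.975% for Syt6.

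When the counts of all cells of a class were summed per mouse, 5 of the 6 genes were higher below both limits than in the other classes in every mouse. Levels are CPM of the summed counts, scaled by the TMM method. The level of Sla was 44.9 in the blindly sampled mouse and 18.1, 30.8 and 24.1 in projection mice 1, 2 and 3. In the Synpr class it was 0.334, 1.09, 0 and 0.722, and in the Slc30a3 class 1.30, 0.195, 0.397 and 0.435. The lowest value below both limits lay far above the highest elsewhere. For Rprm the levels below both limits were 78.5, 312.5, 149.2 and 174.6, against 0, 8.86, 1.5 and 0.0760 in the Synpr class and 8.25, 22.1, 0.397 and 0.580 in the Slc30a3 class. Projection mouse 1 was highest in all 3 classes, and the groups did not overlap. Here and for the other members, how many of all genes separate the classes in this way was not counted.

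Lsp1 stood at 75.9, 55.6, 40.9 and 41.0 below both limits in the same order of mice. It was 0, 7.82, 0 and 0.114 in the Synpr class and 1.74, 0.195, 0.133 and 0.290 in the Slc30a3 class. A single value, that of projection mouse 1 in the Synpr class, stood apart from the other low ones. The level of Pitpnc1 was 83.2, 29.3, 67.2 and 28.6 below both limits, 1.0, 9.89, 1.85 and 3.61 in the Synpr class and 2.61, 1.46, 1.32 and 0.821 in the Slc30a3 class. Syt6 came closest to overlap, with 4.62, 16.4, 21.9 and 17.6 below both limits, 0, 1.90, 0 and 0.760 in the Synpr class and 2.61, 0, 0.861 and 2.85 in the Slc30a3 class. Its value in the blindly sampled mouse was the lowest below both limits and still above those of the other classes.

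In edgeR's quasi-likelihood test of cells below both limits against the mean of the other classes, all 5 genes that passed the filter on low counts were higher (Benjamini-Hochberg adjusted p under 0.05 over 13103 genes). In that comparison 2.75% of all genes tested were called higher, and DESeq2 called the same 5 against 4.21% of its genes. The genes, class limits and gene lists were chosen with earlier results of these data known. These calls therefore describe the size of the differences and are no independent support. The log2 difference of levels was 5.79 for Sla (SE 0.58, adjusted p = 6.363e-05). It was 5.93 for Lsp1 (SE 0.95, adjusted p = 0.002308) and 5.25 for Rprm (SE 0.97, adjusted p = 0.005821). Pitpnc1 differed by 4.40 (SE 0.49, adjusted p = 0.0001358) and Syt6 by 3.82 (SE 0.88, adjusted p = 0.02268). The median over the 5 was 5.25, against 0.00246 over all genes tested. Crhbp did not pass the filter, and with no filter on low counts it differed by −2.78 (edgeR adjusted p = 0.5861). Without projection mouse 2 the edgeR calls of Rprm (adjusted p = 0.06084) and Syt6 (0.1664) were lost, and without projection mouse 3 that of Syt6 (0.1498).

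**Figure D2:**
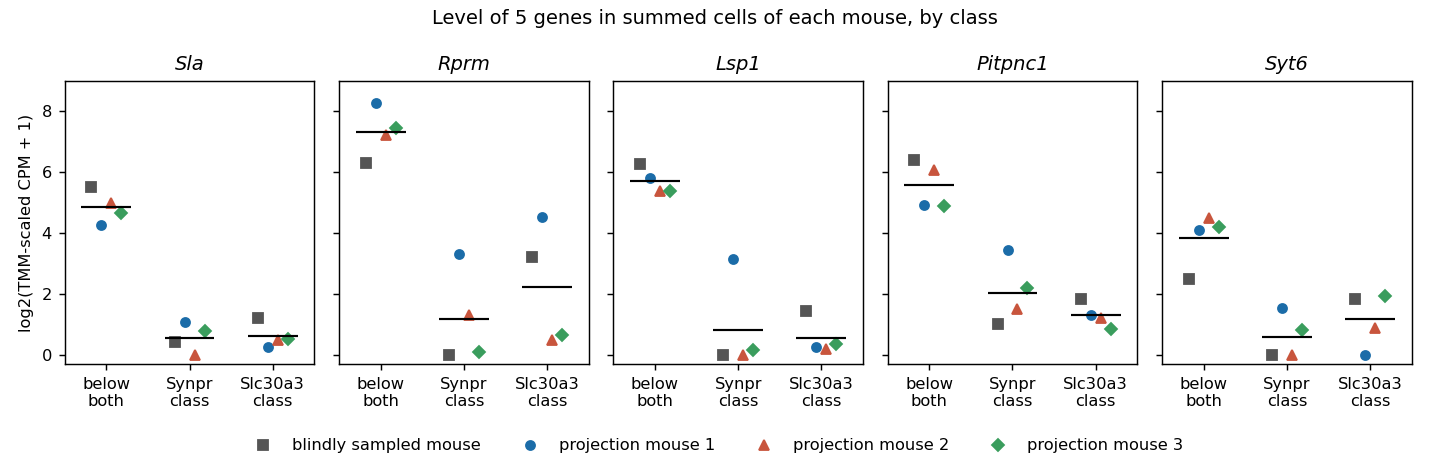
Level of 5 genes (y axis, log2 of TMM-scaled CPM plus 1) in the summed cells of each of 4 mice, by class; symbols are mice and lines are means of the 4 values. In each panel every value below both limits lies above every value of the Synpr and Slc30a3 classes, with the narrowest gap for Syt6. The share of all genes that separate in this way was not counted.

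Other genes of the same layer were compared by a list of 9. Of these, 6 were higher below both limits, 0 were lower and 3 did not pass the test, with a median log2 difference of 2.85. The summed level of the 9 was 499.0 to 570.2 CPM below both limits, 213.1 to 278.9 in the Synpr class and 197.3 to 225.0 in the Slc30a3 class. Each test was against the mean of 2 classes that also differ. Between them edgeR called 3 of the 9 higher in the Synpr class (Tbr1, Zfpm2, Hs3st4) and 2 lower (Fezf2, Ppp1r1b), against 7.07% of all genes. Foxp2, a transcription factor of corticothalamic neurons, was higher by 5.82 (edgeR adjusted p = 0.0001343) and its level was 38.9 to 42.9 in all 4 mice. Tle4, a transcriptional corepressor, was higher by 2.66 (edgeR adjusted p = 0.0006744), Fezf2, a transcription factor of deep-layer neurons, by 4.18 (edgeR adjusted p = 0.0008244) and Zfpm2, a transcriptional cofactor, by 2.99 (edgeR adjusted p = 0.00703). The call of Zfpm2 was not kept under every alternative fit. Hs3st4, a heparan sulfate sulfotransferase, was higher by 3.33 (edgeR adjusted p = 0.0008527) and Ppp1r1b, a regulator of protein phosphatase, by 2.85 (edgeR adjusted p = 3.397e-05). The other members of the list did not pass: Tbr1 differed by 0.26, Ntsr1 by 0.35 and Sox5 by −0.56. Ntsr1, a neurotensin receptor whose gene drives Cre in a widely used corticothalamic line, had levels that did not differ beyond the spread between mice.

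Genes of layer 6b moved in the same direction. Of 7 in the list 5 were tested and 4 were higher: Ctgf, a secreted matrix protein, by 7.18 (edgeR adjusted p = 0.000619), Cplx3, a complexin, by 6.73 (0.0001559), Moxd1 by 7.32 (0.007235) and Kcnab1, a potassium channel subunit, by 2.43 (0.01056). The differences were uneven across mice, and the calls of Moxd1 and Kcnab1 were not kept under every alternative fit. The level of Ctgf below both limits was 203.2 in the blindly sampled mouse and 15.6, 25.3 and 8.67 in projection mice 1, 2 and 3, and that of Cplx3 was 1084 against 43.0, 274.1 and 29.2. The summed level of the 7 genes ranged from 81.6 to 1619 over the mice below both limits, from 94.7 to 106.0 in the Synpr class and from 37.5 to 58.9 in the Slc30a3 class. The cells below both limits therefore held cells with layer 6b genes beside those with layer 6a genes, most of all in the blindly sampled mouse.

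Markers of other cells were read beside these. Their levels are given for the projection mice, since the table of the blindly sampled mouse lists only part of these genes. Of 6 genes of inhibitory neurons 5 were listed and 1 passed the filter, which was not called, and their summed level ranged from 0.585 to 126.2 below both limits, 5.69 to 116.6 in the Synpr class and 0.2 to 3.85 in the Slc30a3 class. Of the genes of microglia and blood, Cx3cr1, C1qb and Ptprc had 0 counts in the thinned cells below both limits. For genes of other glia and vessels the ranges in the same order of classes were 41.9 to 48.8, 25 to 300.1 and 92.1 to 768.9, with 2 genes tested and 0 called. Of 4 genes of striatal neurons 2 were tested and 0 called. Of 5 genes of layer 5 and the upper layers 4 were tested and 1 was higher, Deptor, an inhibitor of mTOR signaling, by 1.16 (edgeR adjusted p = 0.04206). The summed level of this list was 238.4 to 292.6 below both limits, 39.4 to 99.0 in the Synpr class and 273.3 to 400.6 in the Slc30a3 class. Of the claustral genes, 5 of 6 core genes were lower below both limits and 3 of 5 shell genes were higher, each against the mean of the 2 classes. The summed level of the shell genes was 1064 to 2044 below both limits, between 94.0 to 161.6 in the Synpr class and 1862 to 2654 in the Slc30a3 class. The shell genes were thus not shown to be higher than in the Slc30a3 class. Synpr and Slc30a3 define the classes and count among these lists without being evidence. The part of layer 6b and shell genes in the differences of the 5 genes was not tested.

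Near relatives and partners of the genes were followed as a further list of 14, of which 8 were tested and 2 were higher. Rprml, the only close relative of Rprm in the list, was higher by 1.56 (edgeR adjusted p = 0.006466), and its levels overlapped: 149.4 to 209.8 below both limits and 112.5 to 285 in the Slc30a3 class, against 12.5 to 41.4 in the Synpr class. Rprml was also lower in the Synpr class than in the Slc30a3 class by 3.03 on the log2 scale (SE 0.38, edgeR adjusted p = 0.0001946). Syt10, a synaptotagmin close to Syt6, was higher by 1.58 (edgeR adjusted p = 0.04758). In edgeR the call of Rprml was lost without any 1 of the projection mice (adjusted p 0.07015 to 0.0996) and that of Syt10 without projection mouse 3 (0.2716), projection mouse 1 (0.1899) or the mouse sampled blindly (0.1988). Crhr1, the receptor for the hormone that Crhbp binds, differed by 0.45 (edgeR adjusted p = 0.6768).

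Within the pooled cells below both limits of the projection mice the genes were often found in the same cells. In the 158 thinned cells of the projection mice, Rprm was detected in 24 of 31 cells with Sla (77.4%, 58.9 to 90.4) and in 30.7% of those without it. It was in 31 of 36 cells with Lsp1 (86.1%) against 26.2% without, in 25 of 38 with Pitpnc1 (65.8%) against 31.7%, and in 16 of 24 with Syt6 (66.7%) against 35.1%. The pairing was one-sided for the rarer genes, since 38.1% of the 63 Rprm cells had Sla and 49.2% had Lsp1. All shares are of the same cells at 1 depth, and the cells share plates. They pool 3 mice and all projection labels, while 59.8% of unlabeled but 5.66% of LEC cells had 2 or more of the members. Whether the genes go together within a label or within each mouse was not tested. In the 32 cells of the blindly sampled mouse Rprm was too rare to show this, in 1 of 14 cells with Lsp1 against 1 of 18 without and in 1 of 16 with Pitpnc1 against 1 of 16 without, and Syt6 was in none. There Pitpnc1 stood in 9 of 14 cells with Lsp1 (64.3%, 35.1 to 87.2) against 38.9% without.

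Most of the 9 other layer 6a genes were more frequent in cells with Rprm. In the projection mice Ppp1r1b was detected in 54 of 63 Rprm cells (85.7%, 74.6 to 93.3) against 23.2% of cells without Rprm. Foxp2 was in 50.8% against 10.5%, Tle4 in 55.6% against 15.8% and Hs3st4 in 74.6% against 13.7%. Fezf2 was in 63.5% against 29.5%, Tbr1 in 74.6% against 43.2% and Zfpm2 in 19.0% against 3.16%. Ntsr1 was about as frequent in both, in 17.5% against 15.8%, and Sox5 went the other way, in 34.9% against 46.3%. Across all 190 cells, 77 of 140 with 2 or more of the 9 other layer 6a genes also had 2 or more of the members (55.0%, 46.4 to 63.4). Of the 50 cells with 0 or 1 of them only 1 did (2.0%, 0.0506 to 10.7). In each mouse the share was 48.0% to 65.4% in the former cells.

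Layer 6b genes divided the members. In the projection mice Ctgf was found in 2 of 63 Rprm cells (3.17%) against 8.42% without Rprm, and Cplx3 in 5 of 63 (7.94%) against 22.1%, and each of the 7 layer 6b genes was found in a lower share of cells with Rprm than of cells without it. Pitpnc1 cells leaned the other way, with Ctgf in 7 of 38 (18.4%, 7.74 to 34.3) against 2.5% of cells without Pitpnc1, and Cplx3 in 28.9% against 12.5%. In the blindly sampled mouse Ctgf was detected in 21 and Cplx3 in 22 of 32 cells. There Ctgf stood in 12 of 14 Lsp1 cells, 14 of 16 Pitpnc1 cells and 8 of 11 Sla cells, but in 0 of 2 Rprm cells, while Nxph4, another gene of the layer 6b list, stood in 2 of 2. Cells with 2 or more members and 2 or more layer 6b genes were 11 of 32 in the blindly sampled mouse and 0 of 65, 7 of 39 and 4 of 54 in projection mice 1, 2 and 3. Lsp1, Pitpnc1 and Sla were thus met in cells with layer 6b genes as well, and so was Syt6 in the projection mice. For Rprm this was seldom so in the projection mice, and the 2 Rprm cells of the blindly sampled mouse are too few to tell.

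**Figure D3:**
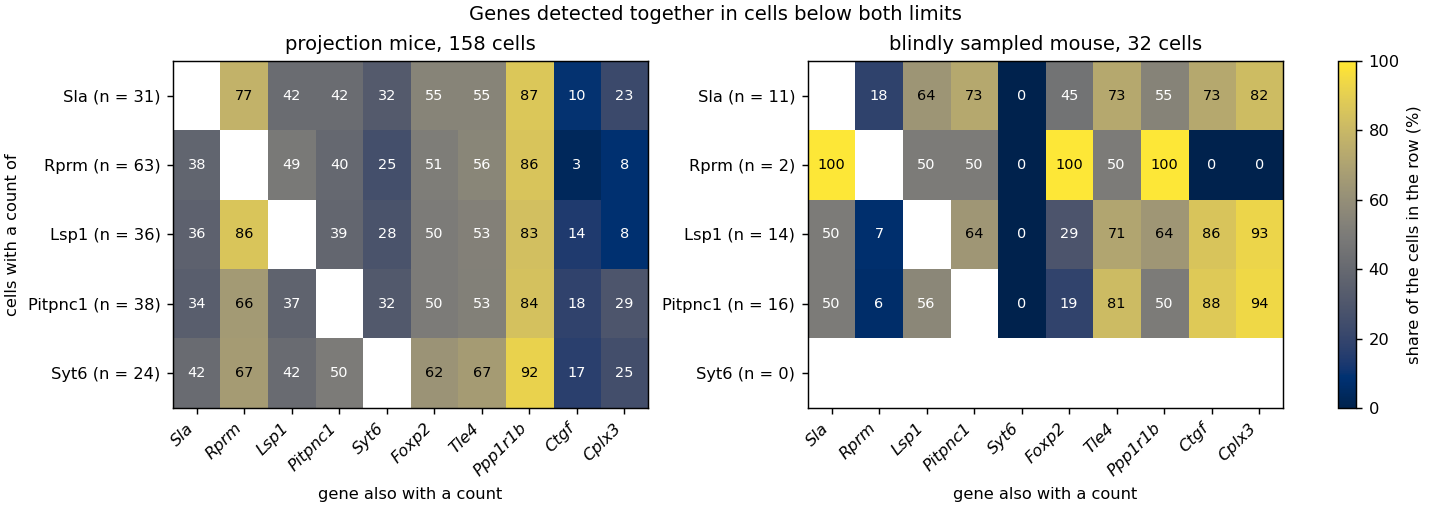
Share of cells (color and printed value, percent) with a count of the gene on the x axis among cells with a count of the gene on the y axis, in thinned cells below both limits of the projection mice (158 cells) and of the blindly sampled mouse (32 cells). Rprm and Ppp1r1b columns are high in the projection mice, where Ctgf and Cplx3 stay low, and in the blindly sampled mouse Ctgf and Cplx3 are high in the Sla, Lsp1 and Pitpnc1 lines; the line of Syt6 is empty there since no cell had a count.

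Genes whose levels ran most like the mean of the 6 were sought in the same 158 cells, over 10267 genes with a count in at least 10% of them, by Pearson's r of log2(CPM + 1). The highest were Ppp1r1b (r = 0.747), Slc1a2 (0.704), Hs3st4 (0.688), Trbc2 (0.682) and Foxp2 (0.668), followed by Arhgap25, Gm3788, Rph3a, Ttc9b and Tle4 (0.658 to 0.621). Ppp1r1b, Hs3st4, Foxp2 and Tle4 belong to the list of layer 6a genes, while Slc1a2 encodes a glutamate transporter and Trbc2 a constant segment of the T cell receptor. In the 32 cells of the blindly sampled mouse, where the ranking played no part, r was 0.250 for Ppp1r1b, 0.516 for Slc1a2, 0.467 for Hs3st4, 0.404 for Trbc2 and 0.472 for Foxp2. The lowest were Cck, a neuropeptide gene (r = −0.727), C1ql3 (−0.694), Rtn4rl1 (−0.662), Galnt14 (−0.659) and Tesc (−0.651). In the blindly sampled mouse r was −0.412 for Cck, −0.702 for C1ql3, −0.711 for Rtn4rl1, 0.130 for Galnt14 and −0.0854 for Tesc. Among layer 6b genes r was 0.151 for Ctgf and 0.0525 for Cplx3 in the projection mice, against 0.439 and 0.470 in the blindly sampled mouse. These values run over cells that share plates and differ in depth and, in the projection mice, in label, and they are descriptions without a test.

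Detection outside the cells below both limits was concentrated in few cells. The Synpr class held 173 counts of Rprm, 104 of them in 1 cell, and 139 counts of Lsp1, 61 in the same cell. Below both limits the top cell held 5.62% of 5039 counts of Rprm, spread over 79 cells. Pitpnc1 was the exception, with 291 counts in 27 cells of the Synpr class and 16.5% of them in the top cell. Among cells of the Synpr and Slc30a3 classes with a count, the median level of Rprm per cell was 8.73 CPM, against 586.8 CPM in cells below both limits.

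Of the 7 cells of these classes with 2 or more of the genes after thinning, 4 were RSC-labeled Synpr-class cells of projection mouse 1, 1 of them a Crhbp cell described further on. The other 3 had 1581 to 1923 CPM of Synpr and 0 of Slc30a3, and 6 or 7 of the 9 other layer 6a genes had a count in each. Their totals, 473224, 358787 and 326448 counts, ranked 1, 7 and 13 of 83 in that class and mouse, where the median was 201683. The second of them had 19 counts of Sla, 104 of Rprm, 61 of Lsp1 and 44 of Foxp2. These 3 cells carried claustral and layer 6a genes at high totals, and no doublet caller was run on these hand-picked cells. A Slc30a3-class cell of the blindly sampled mouse had 19 counts of Rprm, 4 of Lsp1 and 6 of Syt6 at 146.5 CPM of Slc30a3, and an unlabeled Slc30a3-class cell of projection mouse 1 had 95 of Rprm and 7 of Pitpnc1. The last was the Crhbp cell of projection mouse 3, also described further on.

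Between the Synpr and Slc30a3 classes no difference of the genes passed the test. With edgeR, 0 of 5 were called, against 7.07% of all 13103 genes, and 1 had an unadjusted p under 0.05, as did 17.6% of all genes. DESeq2 called 1, which was Crhbp, against 9.73% of its genes. Pitpnc1 differed by 1.65 on the log2 scale (SE 0.63, edgeR adjusted p = 0.1638) and Lsp1 by 2.70 (SE 1.33, edgeR adjusted p = 0.3229), both toward the Synpr class. Without projection mouse 1, which holds the cells just described, Lsp1 differed by −2.38 and Sla by −0.47 instead of 0.39. Rprm differed by −1.38 (SE 1.19, edgeR adjusted p = 0.6797) and Syt6 by −0.98 (SE 1.09, edgeR adjusted p = 0.7895).

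Crhbp did not behave as a layer 6a marker in these cells. It had 1510 counts in 17 kept cells, and 1495 of them lay in 2 cells of the Synpr class with the RSC label, 842 in projection mouse 3 and 653 in projection mouse 1. These cells had 2691 and 1258 counts of Sst, the somatostatin gene of a class of inhibitory neurons, 199 and 251 of Gad1 and 163 and 150 of Gad2, the enzymes that make GABA, and 1 count each of Slc17a7. The other 15 kept cells had 1 count each, 3 of them below both limits. Among the 101 removed cells, 5 had a count, and 4 of these had 614, 541, 71 and 22 counts of Crhbp together with Gad1, Gad2 and Sst and 0 of Slc17a7.

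The level of Crhbp in summed cells followed these 2 cells. In the Synpr class it was 37.6, 0.441 and 32.1 in projection mice 1, 2 and 3, against 0, 0.497 and 0 below both limits and 0, 0.133 and 0 in the Slc30a3 class. By label it was 50.5, 0.721 and 43.2 in RSC cells, 0 in LEC cells of all 3 mice and 0, 0.362 and 0 in cells without a label. With no filter on low counts the difference between the Synpr and Slc30a3 classes was called (edgeR adjusted p = 0.004572), as were 3.71% of all genes, and so was that between RSC and LEC (edgeR adjusted p = 0.0008512), as were 2.92%, each resting on 1 cell in each of 2 mice. The summed level of the inhibitory genes was 6.8 to 197.3 in RSC cells and 0.164 to 0.893 in LEC cells. The table of the blindly sampled mouse lists none of Crhbp, Gad1, Gad2 and Slc32a1.

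**Figure D4:**
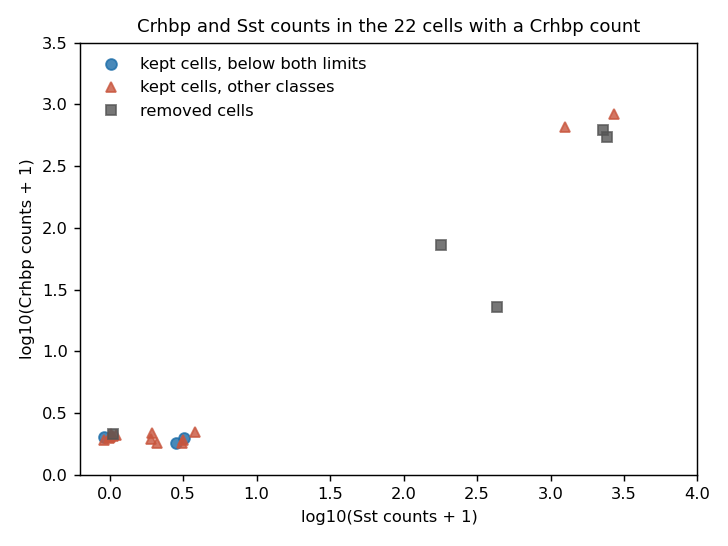
Counts of Crhbp (y axis) and Sst (x axis), both as log10 of counts plus 1, in the 22 cells with a count of Crhbp; color and symbol give the class, and cells with 1 count of Crhbp are spread slightly so that they can be seen. Cells with over 20 counts of Crhbp, 2 kept and 4 removed, all have over 100 counts of Sst, and the 3 cells below both limits sit at the lower left.

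For the question of projections, cells of the projection mice were summed by label. Each label sat on its own plate within a mouse, except for 1 plate with RSC and LEC cells of projection mouse 3, so label and plate cannot be told apart. The level of Rprm was 295.7, 64.1 and 89.9 without a label in projection mice 1, 2 and 3, against 21.1, 5.62 and 0 in RSC cells and 5.12, 0 and 0.664 in LEC cells. Lsp1 stood at 46.6, 17.5 and 21.7 without a label, 10.4, 1.30 and 0 in RSC cells and 3.61, 0 and 0 in LEC cells. For Sla the levels were 17.1, 12 and 8.07 without a label, 1.46, 3.32 and 0 in RSC cells and 0, 0.325 and 4.22 in LEC cells. For each of these genes every value without a label was above every value with one. How many of all genes separate the labels in this way was not counted, so this is a description.

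Pitpnc1 had levels of 27.5, 26.8 and 15.7 without a label, 11.9, 4.61 and 6.08 in RSC cells and 2.18, 3.65 and 0.807 in LEC cells. Syt6 had 14.6, 7.53 and 9.28 without a label, 2.54, 3.17 and 1.02 in RSC cells and 0.477, 1.54 and 2.66 in LEC cells. These groups did not overlap either, with the same limit, and for Pitpnc1 every RSC value was above every LEC value.

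No gene passed edgeR's test of cells without a label against the mean of RSC and LEC: 0 of 13976 genes were called (0.0%), 0 of 5 members among them, while 1146 genes (8.2%) and all 5 members had an unadjusted p under 0.05. The log2 differences were 5.18 for Rprm (SE 1.02, edgeR adjusted p = 0.1704), 3.72 for Lsp1 (SE 1.22, 0.4328), 3.0 for Sla (SE 1.14, 0.5069), 2.52 for Pitpnc1 (SE 0.44, 0.1574) and 2.48 for Syt6 (SE 0.55, 0.2216), with a median of 3.0 against 0.00970 over all genes. The call depended on the counts that entered. After cells had been thinned to 20000 counts, edgeR called all 5, with adjusted p from 1.089e-05 for Rprm to 0.04734 for Sla, against 0.881% of 10100 genes. DESeq2 called 2, Pitpnc1 (adjusted p = 7.281e-05) and Syt6 (0.005984), against 1.29% of its genes, and with no filter on low counts edgeR called Rprm (adjusted p = 0.01818) and Pitpnc1 (0.02416), against 0.134% of all genes. In 3 mice the difference was thus seen in every mouse but passed the threshold only under some settings.

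**Figure D5:**
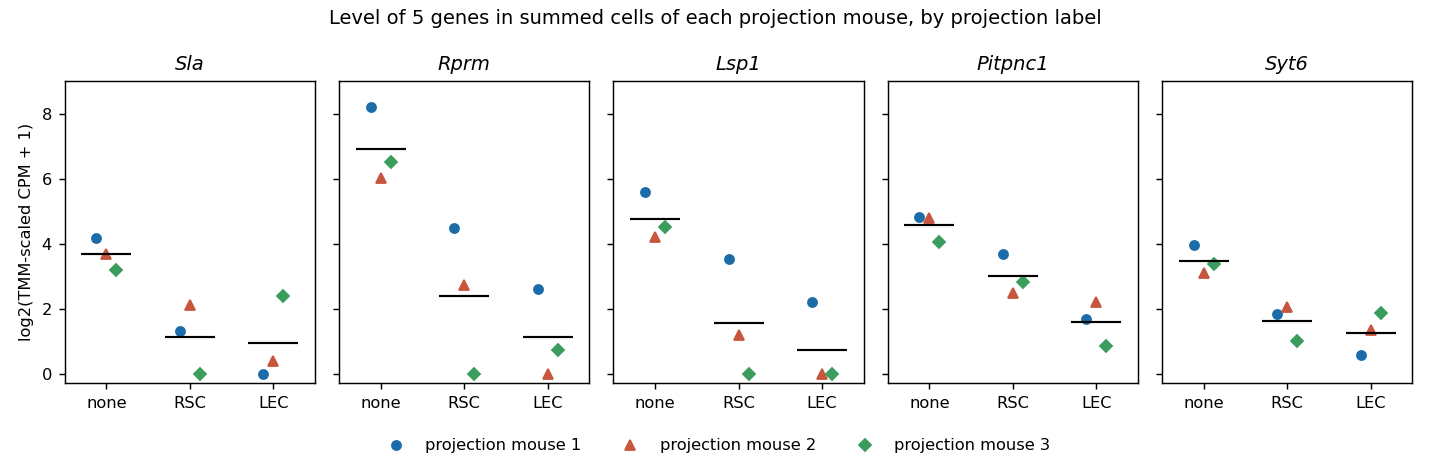
Level of 5 genes (y axis, log2 of TMM-scaled CPM plus 1) in the summed cells of each of 3 projection mice without a projection label, with the RSC label and with the LEC label; symbols are mice and lines are means. In every panel the 3 values without a label lie above the 6 values with one, and the share of all genes that do so was not counted.

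The share of cells below both limits moved with the labels. It was 98 of 240 kept cells without a label (40.8%), 58 of 286 with the LEC label (20.3%) and 12 of 247 with the RSC label (4.86%). Below both limits, LEC cells seldom had several of the members, unlike unlabeled ones. Of 97 thinned unlabeled cells below both limits 58 had 2 or more of the members (59.8%, 49.4 to 69.6), 61.4%, 54.2% and 62.1% in projection mice 1, 2 and 3. Of 53 LEC cells 3 did (5.66%, 1.18 to 15.7), 4.76%, 0% and 8.70% by mouse. The mean difference over the mice was 54.7 percentage points (59.2% ± 4.37 against 4.49% ± 4.35, SD, n = 3), with the same direction in 3 of 3, and the exact paired permutation test gave a two-sided p of 0.25, the smallest that 3 mice allow. Of the 8 RSC cells 4 had 2 or more, all of them on 1 plate of projection mouse 2.

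Other genes of these cells were read beside the members. Among the 9 other layer 6a genes, 2 or more were found in 81 of the 97 unlabeled cells (83.5%) and in 29 of the 53 LEC cells (54.7%), and their summed level was 785.1 against 242.5 CPM. Of 4 shell genes, Slc30a3 left out, 2 or more were found in 83 of 97 unlabeled cells (85.6%) and in 53 of 53 LEC cells, with summed levels of 1218 and 2150 CPM. The LEC cells below both limits thus had shell genes without most of the members. When only cells of the Synpr and Slc30a3 classes were summed, Syt6 no longer lay higher without a label (log2 difference −3.48, edgeR adjusted p = 0.8764). Rprm and Pitpnc1 still did. Over all 12 alternatives, this one among them, their log2 differences were 4.89 to 6.32 and 0.564 to 2.86. In these classes alone edgeR called 0 of 13452 genes.

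Between RSC and LEC cells no member passed the main test. In edgeR's test 0 of 5 were called, against 3.95% of 13976 genes, with 1 unadjusted p under 0.05, as for 16.4% of all genes. Pitpnc1 was the nearest, with a log2 difference of 1.79 toward RSC (SE 0.55, edgeR adjusted p = 0.1093), and DESeq2 called it (adjusted p = 0.01886) and Crhbp (0.001632), against 8.27% of its genes. Rprm differed by 2.21 (SE 1.34, edgeR adjusted p = 0.4843), Lsp1 by 1.72 (SE 1.56, 0.6804), Syt6 by 0.49 (SE 0.67, 0.8205) and Sla by −0.04 (SE 1.40, 0.9955).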

How the data were processed

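Single-cell RNA sequencing of 4 mice was analysed from 2 tables, 1 of them holding the projection mice. Their values are raw counts as the authors deposited them, beside the animal and projection label of each cell. Reads were aligned with STAR, whose version, annotation and use of strand are not given in the sources used here. The submitters' processing notes name the build NCBIM37 and Seurat. Counts were taken as reads, since the Methods give totals in reads, and depth per kept cell ran from 434 to 495406 counts. Spike-ins were left out, and 0 columns of per-sample values were left unused. A gene listed in 1 table only was given 0 counts in the other.

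The 6 genes, the class limits and all gene lists were chosen with earlier results of these data known. Named were the 6 genes, those of the lists, near relatives and partners, and the 10 genes most like and 5 least like the members. Counts were summed per mouse and class, or per mouse and label (at least 5 cells), and tested in edgeR 4.0.16 (R 4.3.3) by the quasi-likelihood test after filterByExpr and TMM scaling, with Benjamini-Hochberg adjusted p under 0.05 as the call, with DESeq2 1.42.0 as an alternative. The test was tried on simulated data. Fold changes are log2 differences of levels. P-values measure the spread between mice. Sums of a mouse come from 1 animal, so pairing was checked: deviations from group means correlated with a median r of 0.137 between class sums of a mouse (0.116 to 0.492, 12 pairs) and 0.0356 between label sums (−0.0229 to 0.0885, 9 pairs). The mouse as a block was an alternative. Shares have exact Clopper-Pearson 95% intervals, computed with scipy 1.17.1. Figures were drawn with matplotlib 3.10.9. The summed level of the microglial genes is not reported here. Removed cells and anterior or posterior position entered no comparison.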

Additional observations from a re-analysis of the deposited data

Results flagged for a closer look

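In 24 sets of 4 values, 1 for each mouse, of the levels and shares given above, a mouse far from the others was sought by the gap to its nearest neighbor divided by the range, against the 95% limit of Dixon's test. By chance about 1 in 20 groups passes this limit, and 3 of 24 did. In the Synpr class projection mouse 1 stood apart for Rprm, at 8.86 CPM (ratio 0.831), and for Lsp1, at 7.82 CPM (ratio 0.985). In the Slc30a3 class the blindly sampled mouse stood apart for Lsp1, at 1.74 CPM (ratio 0.902). The first pair of values includes the RSC-labeled Synpr-class cells of projection mouse 1 with several of the genes, and the last includes 1 cell with 4 counts of Lsp1. In cells that no comparison used, the 83 removed cells of the projection mice, the level of Crhbp was 1229 CPM, against 12.1 CPM in kept cells of the same mice.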

How the results depend on the processing

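Below both limits against the other classes, the 5 calls held under DESeq2, other size factors, no filter, other limits, the mouse as a block, only unlabeled cells and, chosen after seeing the data, only genes of both tables and no cells with Gad1, Gad2 or Slc32a1. Syt6 was not tested after thinning. Leaving out single mice gave 3 to 5 calls. The genes called numbered 1080 with DESeq2, 954 with the replicate block and 233 to 559 without single mice. Between the Synpr and Slc30a3 classes 1 member was called with DESeq2 and with no filter, Crhbp, and 0 without single mice. The genes called were 1441 with DESeq2, 1508 with the block, 495 in unlabeled cells and 360 to 1096 without single mice.

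For cells without a label, members called were 2 with DESeq2, 2 with no filter and 5 after thinning, and genes called were 187, 30 and 89, with 2 under the block and 0 to 2 without single mice. Between RSC and LEC 2 members were called with DESeq2, 1 with no filter and 0 to 1 without single mice, where Crhbp was the 1, and genes called were 1238 with DESeq2 and 59 to 391 without single mice. Leaving out the plate with RSC and LEC cells, also chosen after seeing the data, changed no call of a member. The replicate block changed no other call of a member.

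The share of cells below both limits with 2 or more members was 47.2% without thinning, 31.9% at 10000 counts, 30.0% with 2 counts required, 55.0% in unlabeled cells, 64.3% in cells with Foxp2, Tle4 or Fezf2, and 40% to 42.7% without single mice. The share of other cells with 1 or more was 13.8% without thinning, 2.65% with 2 counts required and 4.03% to 5.47% without single mice.

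Directions turned only for differences that were not called. Toward the Synpr class, Sla was −0.54 after thinning, −2.45 in unlabeled cells, −0.0873 at limits of 100 and 10 CPM and −0.47 (projection mouse 1 left out) to 0.81 without single mice, Lsp1 −1.48 in unlabeled cells and −2.38 (projection mouse 1 left out) to 3.57 without single mice, and Pitpnc1 −0.0619 in unlabeled cells. Without a label, Syt6 was −3.48 in claustral classes alone. Toward RSC, Sla was 0.0478 after thinning, 0.0678 with DESeq2, 0.36 with the block and −1.60 to 3.85 (projection mouse 3 left out) without single mice, and Syt6 −0.23 in claustral classes alone and −0.0413 (projection mouse 1 left out) to 1.5 without single mice. The causes were not tested. Low counts of Syt6 and Crhbp and 3 or 4 mice limit these results.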

Other observations

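Most claustral genes were lower in cells below both limits with 2 or more of the 6 genes than in the other cells below both limits. These values come from cells thinned to 20000 counts and are descriptions, since the members and the other genes were counted in the same cells. In the projection mice the 2 groups also differ in label and plate. Of the unlabeled cells 58 of 97 had 2 or more of the genes, but only 3 of 53 LEC cells did. Summed levels were 1218 CPM in unlabeled and 2150 CPM in LEC cells for shell genes without Slc30a3. For core genes without Synpr they were 200.5 and 364.2 CPM. The part of the label was not tested. Gnb4, a G protein subunit used as a claustral marker, stood at 44.6, 85.3 and 52.5 CPM in the former cells of projection mice 1, 2 and 3, against 97.3, 261.4 and 116.2 CPM in the latter. Nr4a2, a nuclear receptor of the claustrum, stood at 21.4, 0 and 10 CPM against 78.4, 200 and 157.4 CPM. Each of these values was lower in the cells with 2 or more of the genes. Lxn and Gfra1, also of the core list, were lower there in all 4 mice, as were Nnat and Col6a1 of the shell list. Slc17a6, a vesicular glutamate transporter gene of the core list, went the other way in the projection mice, at 7.14, 32.4 and 2.5 CPM against 0, 4.54 and 0 CPM. Among shell genes Spon1 was higher in projection mouse 2, at 358.8 against 275 CPM, and Ntm in projection mouse 2 and the blindly sampled mouse. In the blindly sampled mouse Gnb4 was 15.4 against 105.3 CPM, but Nr4a2 was 319.2 against 294.7 CPM and did not follow. Pcp4, a calmodulin-binding protein of deep cortical layers, ran the other way in all 4 mice, with 3500, 1725, 1312 and 1432 CPM in the blindly sampled mouse and projection mice 1, 2 and 3 against 2118, 532.4, 470.5 and 407.4 CPM.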
